A study of Mus musculus with 30 samples.

Results

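Uninjured tibialis anterior, a shin muscle of the mouse hind limb, was compared with the same muscle 15 days after volumetric muscle loss. In that injury a part of the muscle is removed whole. The comparison takes the 6 libraries titled as uninjured and the 6 titled as taken 15 days post injury, so 12 of the 30 RNA-seq libraries of the series. Each set of 6 holds 3 libraries labelled female and 3 labelled male. The other 18 libraries come from days 4, 7 and 11 and were used to place day 15 in time. The labels give sex, tissue and time for these mice, and no strain, genotype, age or agent. They do not say whether the libraries of a group came from separate animals, or whether uninjured muscle came from mice injured elsewhere, so the p-values below measure the spread between these samples, which may be technical in part.

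After an injury that leaves the tissue scaffold in place, muscle rebuilds itself in an ordered way. Satellite cells, the stem cells that lie against the fibre, divide, differentiate under the myogenic transcription factors and fuse into new fibres, which first make embryonic forms of the contractile proteins. Monocytes and macrophages clear the debris and then change state, and fibro-adipogenic progenitors lay down a temporary matrix. When a whole volume of muscle is lost, the gap is known to fill with collagen-rich scar and function is regained only in part.

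Total counts per library were 40757683 to 48860849 in uninjured muscle and 13089999 to 30024528 at day 15, so the day 15 libraries were the shallower ones. The top 10 genes of a library held 25.7 to 32.3% of its counts in uninjured muscle and 12.1 to 18.6% at day 15, and the factors of the trimmed mean of M-values (TMM), which scale the libraries, were 0.484 to 0.597 and 0.990 to 1.24. Levels below are in CPM, counts scaled by library size and these factors, given as the lowest, the median and the highest of 6 libraries. The first principal component of log2 CPM held 69.6% of the variance over the 12 libraries and the second 6.11%. Xist, which is expressed from the inactive X chromosome, lay between 83.0 and 552 CPM in the 6 libraries labelled female and at most at 3.49 CPM in the 6 labelled male, and the Y-linked Ddx3y was at 60.3 to 94.1 CPM in the males and at 0 in the females. Among the day 11 libraries, that labelled female day 11 replicate 3 went against its label, with Xist at 0.109 CPM and Ddx3y at 57.4 CPM. Most counts against day 11 are given with and without it.

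Day 15 muscle differed from uninjured muscle across most of the transcriptome. edgeR's quasi-likelihood test with Benjamini-Hochberg adjustment called 6809 of 17136 tested genes higher, which is 39.7%, and 5014 lower, which is 29.3%, at an adjusted p under 0.05. In 7743 genes, 45.2%, the 6 libraries of day 15 did not overlap with the 6 uninjured ones. These shares are the background for every count of genes below. By the same test, 4302 genes, 25.1%, were higher and 4632, 27.0%, lower at day 15 than at day 4, 1116 (6.51%) higher and 1653 (9.65%) lower than at day 7, and 342 (2.00%) higher and 385 (2.25%) lower than at day 11. Without the library labelled female day 11 replicate 3 the counts against day 11 were 575 higher and 931 lower. Because all 30 libraries shared 1 fit, leaving it out also gave 5427 genes lower than in uninjured muscle and 5167 lower than at day 4. These day 11 counts moved by over 1.5 times with single libraries left out. The higher genes numbered 186 without female day 15 replicate 3, 204 without male day 15 replicate 2, and 210, 191 and 202 without male day 11 replicates 2 and 3 and female day 11 replicate 2. The lower genes numbered 238, 122, 109 and 125 without female day 15 replicates 1 and 3 and male day 15 replicates 2 and 3, and 161, 114 and 99 without the same 3 day 11 libraries. The lower genes against day 7 numbered 1071 without male day 7 replicate 2. The median log2 fold change over all tested genes was 0.26, and it was 1.30 when libraries were scaled by their size alone, with 11956 genes then called higher and 1360 lower. Fold changes are therefore relative to the TMM scaling, and among the called genes printed below only Mcm2 changed its direction with the other scaling. The fibre lists described below had medians closer to 0 when scaled by library size alone, at -0.66 for the fast contractile genes, -0.41 for excitation-contraction coupling, -0.88 for glycolysis, -0.59 for the respiratory chain and -0.34 for fatty acid use. The falls of Cs (-0.33), Fbxo32 (-0.13) and Ryr1 (-0.41) did not pass edgeR's test under that scaling. Every fold change is printed as log2 ± SE.

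The 12 genes with the largest rise were taken from those of adequate level whose groups did not overlap. Mymx, the micropeptide that opens the fusion pore between myoblasts, had no counts in any uninjured library and stood at 6.84, 15.9 and 19.6 CPM at day 15, at least 352-fold higher against a floor of 6 counts over the uninjured group. Mymk, which encodes the fusion protein myomaker, stood at 0, 0.118 and 0.352 CPM in uninjured muscle and 33.6, 35.6 and 71.2 CPM at day 15. It had 18 counts in uninjured muscle in all. Day 15 was 358-fold (226 to 605) higher, where the 95% interval allows for counting error alone, as in the other ratios below. Krt8 and Krt18 encode a keratin pair of simple epithelia that injured muscle can also make. Krt8 lay at 0, 0.0899 and 0.177 CPM in uninjured muscle and 40.2, 59.3 and 135 CPM at day 15, and Krt18 at 0, 0.495 and 1.44 CPM in uninjured muscle and 83.8, 109.8 and 211 CPM at day 15. The ratio of Krt8 was 825-fold (472 to 1597), on 12 uninjured counts. Sln, which encodes sarcolipin, an inhibitor of the calcium pump of the sarcoplasmic reticulum, stood at 0.382, 2.16 and 3.86 CPM in uninjured muscle and 309.8, 426 and 1088 CPM at day 15 (8.11 ± 0.59). P4ha3, a collagen prolyl hydroxylase subunit, had 6 uninjured counts and a ratio of 367-fold (168 to 999.9). Sfrp2, a secreted modulator of Wnt signalling, stood at 0, 0.194 and 0.528 CPM in uninjured muscle and 17.5, 25.3 and 68.9 CPM at day 15. C1qtnf3 reached 29.1, 57.5 and 156 CPM from 0.0919, 0.506 and 0.667 CPM. Mmp12, the macrophage elastase, Ccl8, a monocyte chemokine, Rgs1, a regulator of G-protein signalling in leukocytes, and the transcription factor gene Fosb completed the set and are taken up below with their groups.

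The 12 genes with the largest fall were chosen in the same way. Phospho1, a phosphatase of phosphocholine and phosphoethanolamine, stood at 15.6, 40.0 and 61.4 CPM in uninjured muscle and 1.18, 1.28 and 1.49 CPM at day 15 (-4.91 ± 0.54, adjusted p = 3.10e-08). Pfkfb3, which makes the allosteric activator of phosphofructokinase, fell from 121, 302 and 860.2 CPM to 16.7, 23.9 and 33.6 CPM (-3.88 ± 0.51). Epm2a, the glycogen phosphatase laforin, changed by -4.08 ± 0.54 and Mybpc2, the fast myosin-binding protein C, by -3.69 ± 0.63. Wfikkn2, which encodes a secreted protein that binds myostatin, changed by -3.65 ± 0.41 and Rasd2, a small GTPase, by -3.72 ± 0.59. Tspan8, Sdr39u1, Lrrc20 and Cyp4f39 changed by -4.20 ± 0.63, -4.15 ± 0.44, -4.00 ± 0.52 and -3.82 ± 0.72. Amd1, the decarboxylase that feeds polyamine synthesis, lay at 129, 381 and 2579 CPM in uninjured muscle and 9.97, 18.7 and 31.5 CPM at day 15. Its uninjured libraries spread by sex, at 129 to 226 CPM in females and 536 to 2579 CPM in males. Amd1 has a near-identical copy that may take some of its reads, and the histone gene H4c9 (-3.93 ± 0.42) belongs to a multigene family, so both values are uncertain.

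**Figure D1:**
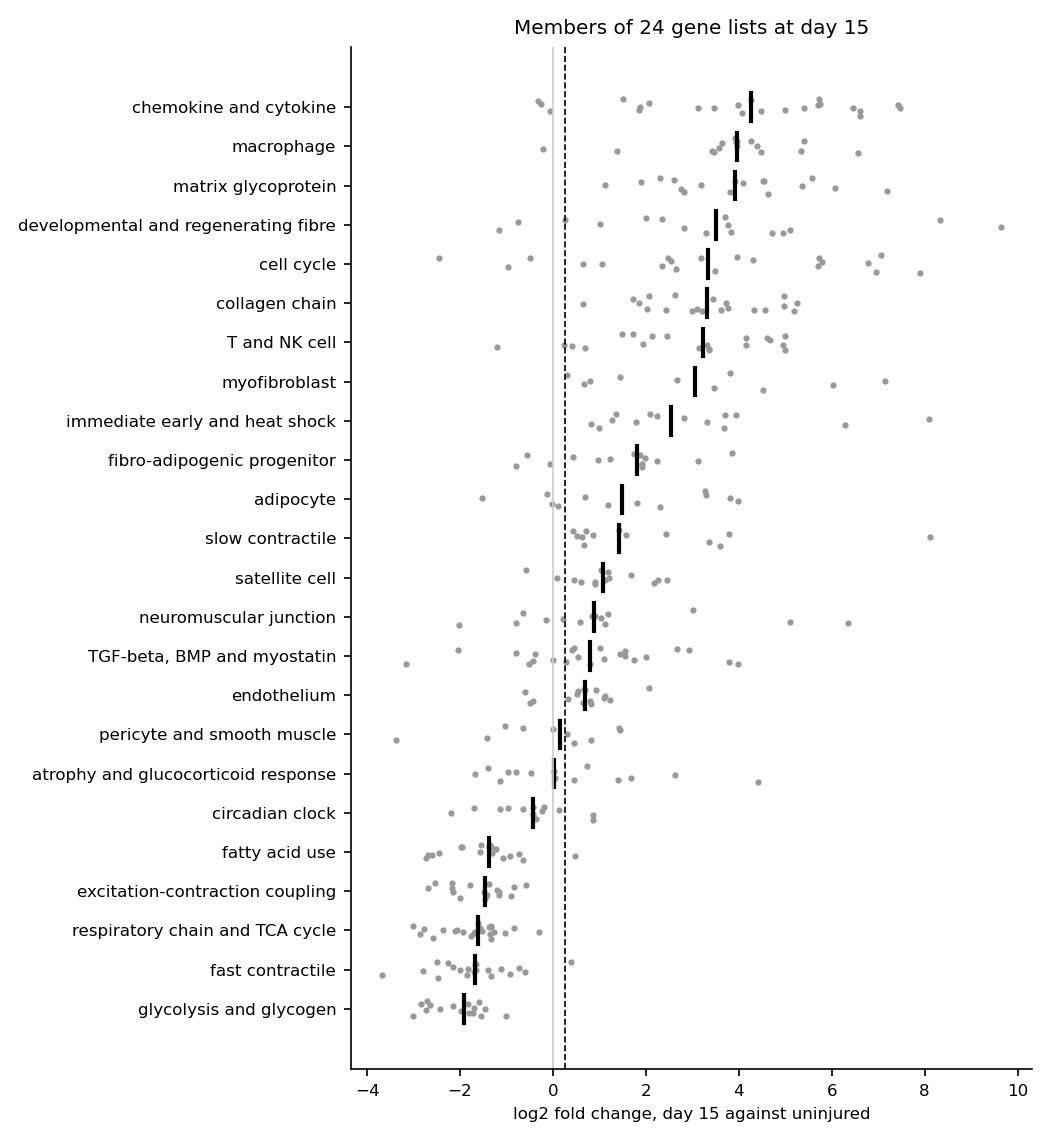
Log2 fold change of day 15 against uninjured muscle (horizontal axis) for the tested members of 24 gene lists, with 1 grey point per gene and a black bar at the list's median; the dashed line marks the median of all tested genes, 0.26. The chemokine and cytokine, macrophage, matrix glycoprotein and collagen chain lists are among those with medians above 3, and the 5 lists of mature fibre function and metabolism have medians below -1.

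Genes of the mature fast fibre remained far below their uninjured level. Of 20 fast contractile genes 17 fell and none rose (median -1.69). Myh4, the myosin of the fastest fibres and the main myosin of this muscle, stood at 65719, 82722 and 109166 CPM in uninjured muscle and 8467, 18709 and 21198 CPM at day 15 (-2.47 ± 0.48). Actn3, the fast-fibre alpha-actinin, stood at 14187, 27476 and 31986 CPM in uninjured muscle and 2507, 3627 and 4699.6 CPM at day 15 (-2.81 ± 0.40). Both genes separated the groups without overlap. Myoz1, a Z-disc protein of fast fibres, changed by -2.50 ± 0.44. The 3 fast contractile genes that were not called were Myh1, Myh2 and Ttn, named here after their values were seen. Myh1 lay at 6437, 11275 and 16394 CPM in uninjured muscle and 3200.5, 7026 and 8623 CPM at day 15, Myh2 at 266, 1017 and 3009.8 CPM in uninjured muscle and 744, 896 and 2824 CPM at day 15 and the giant sarcomere protein gene Ttn at 10836, 13323 and 15924 CPM in uninjured muscle and 6776, 8895 and 11114 CPM at day 15, with overlap in each. The alpha-actin of adult skeletal muscle, Acta1, checks the tissue: it lay at 57154, 88064 and 96265 CPM in uninjured muscle and 8682, 16974 and 35358 CPM at day 15. In bulk samples fewer fibres and less RNA per fibre cannot be told apart.

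Genes that couple excitation to calcium release were lower as well. All but 1 of 17 genes fell (median -1.45), the exception being the triadin gene Trdn, named after its values were seen (overlapping, 2515, 3383 and 3644 CPM in uninjured muscle and 1808, 2061 and 2706 CPM at day 15). Ryr1, the calcium release channel, stood at 4191, 6914 and 8457 CPM in uninjured muscle and 2048, 2392 and 2874 CPM at day 15 (-1.45 ± 0.27). Jph1 and Jph2, the junctophilins that hold the T-tubule against the sarcoplasmic reticulum, changed by -2.55 ± 0.35 and -2.68 ± 0.32, and Scn4a, the sodium channel of the fibre, by -2.18 ± 0.40. In the list of the dystrophin complex and laminins 5 of 15 rose and 8 fell. Sgcd, a sarcoglycan of the fibre membrane, changed by -1.90 ± 0.31. The laminin chains went the other way, with Lamb1 at 16.6, 21.2 and 29.6 CPM in uninjured muscle and 75.8, 131 and 154 CPM at day 15 (2.49 ± 0.24) and Lama4 at 1.54 ± 0.20.

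Most genes of energy metabolism were lower. All 16 glycolysis and glycogen genes fell (median -1.91), 22 of 23 genes of the respiratory chain and TCA cycle fell (median -1.62), and 17 of 19 genes of fatty acid use fell (median -1.37), with none higher in any of the 3. Ldha, lactate dehydrogenase A, stood at 7003, 8293 and 9760.2 CPM in uninjured muscle and 493, 772 and 2593 CPM at day 15 (-3.01 ± 0.49). The groups did not overlap. Fbp2, the fructose bisphosphatase of muscle, changed by -2.84 ± 0.50 and triosephosphate isomerase, Tpi1, by -2.74 ± 0.46. Suclg1, a subunit of succinyl-CoA ligase, changed by -3.02 ± 0.45, the cytochrome oxidase subunit Cox5a by -2.85 ± 0.53 and the succinate dehydrogenase subunit Sdha by -2.77 ± 0.38. Cs, citrate synthase, often read as a measure of mitochondrial content, stood at 1113, 1644 and 1798 CPM in uninjured muscle and 419, 657 and 748 CPM at day 15 (-1.36 ± 0.28). Etfa, Acadm and Etfdh, which carry electrons from fatty acid oxidation or begin it, changed by -2.72 ± 0.39, -2.69 ± 0.36 and -2.60 ± 0.35. In the list of energy phosphates and polyamines 9 of 12 fell and 3 rose (median -1.89). The genes that rose, named after their values were seen, were Ampd3, the AMP deaminase of other tissues, the polyamine acetyltransferase gene Sat1 and spermidine synthase, Srm. Ckm, muscle creatine kinase, stood at 19787, 29424 and 37096 CPM in uninjured muscle and 1788, 2642 and 3826 CPM at day 15 (-3.44 ± 0.53), and Smox, spermine oxidase, at 475, 742 and 1495 CPM in uninjured muscle and 36.2, 60.0 and 126 CPM at day 15 (-3.58 ± 0.28). Against day 4 Myh4 had risen by 1.67 ± 0.47, while the change of Ckm did not pass the test (0.61 ± 0.49, adjusted p = 0.298); whether these 2 changes differ was not tested.

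Genes of new and immature fibres were above uninjured muscle, and moved both ways against the earlier days. Of 16 genes of developmental and regenerating fibres 13 rose and 2 fell (median 3.51). Against day 4 4 of the 16 were higher, among them Krt8 and Krt18, and 8 lower, and against day 7 1 was higher and 5 lower. Against day 11 3 were lower and none higher, with 5 lower without the library labelled female day 11 replicate 3, 1 without male day 11 replicate 3 or female day 15 replicate 1, and 0 without any 1 of male and female day 11 replicates 2, male day 15 replicates 2 and 3 and female day 15 replicate 3. Myh3, embryonic myosin, stood at 1.53, 4.03 and 8.04 CPM in uninjured muscle and 92.3, 114 and 319 CPM at day 15 (5.10 ± 0.55), and had been at 1578, 1947 and 2320.4 CPM at day 4. The day 15 libraries lay between the uninjured and the day 4 ones without touching either. Perinatal myosin, Myh8, stood at 11.4, 14.2 and 20.4 CPM in uninjured muscle and 152, 198 and 308 CPM at day 15 (3.76 ± 0.44) and was also lower than at day 4 (-1.52 ± 0.40) and day 7 (-2.15 ± 0.41). Of 14 genes of myogenic regulation and fusion 5 rose and 4 fell (median 0.20). These shares are near those of all genes, 39.7% higher and 29.3% lower. The differentiation factor Myog stood at 6.29, 8.42 and 13.3 CPM in uninjured muscle and 78.6, 109 and 171 CPM at day 15 (3.65 ± 0.36), without overlap. Against day 4 Myog changed by -2.09 ± 0.33, Mymk by -3.12 ± 0.43 and Mymx by -2.49 ± 0.40. Slow contractile genes rose in 8 of 13 (median 1.41). Slow myosin, Myh7, lay at 0.343, 1.82 and 75.8 CPM in uninjured muscle and 7.08, 21.3 and 53.3 CPM at day 15 (2.44 ± 0.72). Its groups overlapped because 1 uninjured library, female replicate 2, held the highest value of all 12, and in females alone the log2 fold change was -0.18. That library also held the highest uninjured Tnni1, the slow troponin I (0.458, 2.07 and 25.2 CPM in uninjured muscle and 22.5, 35.6 and 79.2 CPM at day 15). Tnnc1, the troponin C of slow and developing fibres, stood at 0.725, 3.94 and 40.9 CPM in uninjured muscle and 38.1, 70.7 and 176 CPM at day 15 (3.79 ± 0.56).

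**Figure D2:**
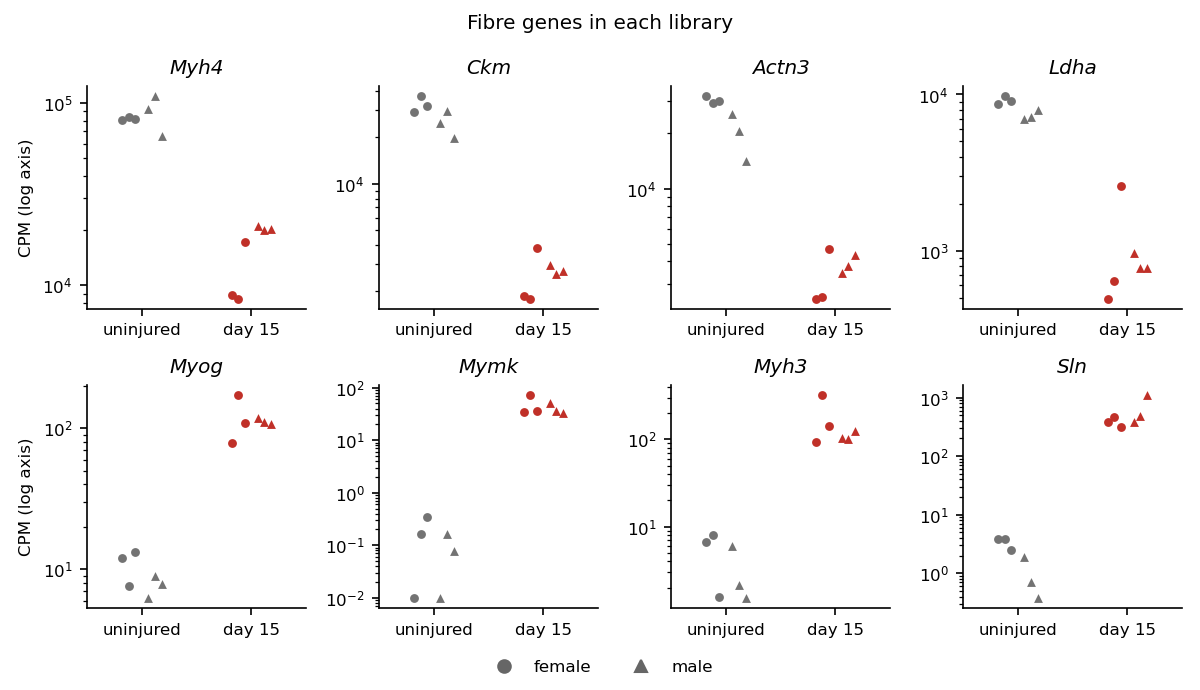
CPM on a log axis of 8 fibre genes in each of the 6 uninjured (grey) and the 6 day 15 (red) libraries, circles for females and triangles for males; a value of 0 is drawn at 0.01. Myh4, Ckm, Actn3 and Ldha are lower and Myog, Mymk, Myh3 and Sln higher in every day 15 library than in every uninjured one. For Mymk and Sln this was a condition of their choice.

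Satellite cell markers were higher in 10 of 14 and lower in none (median 1.08). Pax7, the transcription factor that defines these stem cells, was not among them. It lay at 0.597, 1.79 and 3.57 CPM in uninjured muscle and 0.610, 1.17 and 2.03 CPM at day 15, a log2 fold change of -0.59 ± 0.34 (adjusted p = 0.127), with overlap. Pax7 had been at 7.65, 10.6 and 17.99 CPM at day 4, and its change from there was -3.27 ± 0.34. Megf10, a receptor of quiescent and dividing satellite cells, stood at 0.440, 1.47 and 1.68 CPM in uninjured muscle and 4.601, 5.62 and 6.85 CPM at day 15 (2.27 ± 0.31). Cxcr4 (2.46 ± 0.28) and Vcam1 (2.17 ± 0.30), which were also called, are made by leukocytes and endothelium as well, and the part of other cells in this list was not tested.

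In the neuromuscular junction list 9 of 14 genes rose and 3 fell (median 0.87). Chrng, the fetal gamma subunit of the acetylcholine receptor, stood at 0.0833, 0.245 and 0.620 CPM in uninjured muscle and 16.5, 20.3 and 27.2 CPM at day 15. All day 15 libraries lay above all uninjured ones. Chrnd, the delta subunit, stood at 2.48, 6.41 and 11.2 CPM in uninjured muscle and 31.6, 52.0 and 71.2 CPM at day 15 (3.02 ± 0.33) and the alpha subunit Chrna1 at 22.1, 32.9 and 39.7 CPM in uninjured muscle and 43.0, 69.0 and 139 CPM at day 15 (1.19 ± 0.33). Rapsn, the protein that clusters the receptor, fell from 64.3, 85.9 and 104 CPM to 17.3, 19.2 and 26.5 CPM (-2.02 ± 0.18). Chrne, the adult epsilon subunit, was named after its values were seen. It lay at 27.0, 44.7 and 117 CPM in uninjured muscle and 45.2, 61.1 and 79.6 CPM at day 15, with overlap, and was higher than at day 4 (2.94 ± 0.48). The window just before the start of Chrng is shown because this gene moved with Myog, a factor that binds E-boxes. It covers the 250 bases before the RefSeq start of Chrng in GRCm38.p6, chr1:87205561-87205810 on the plus strand, and the capitals mark CAGCTG, an E-box core that reads the same on both strands.
Chrng: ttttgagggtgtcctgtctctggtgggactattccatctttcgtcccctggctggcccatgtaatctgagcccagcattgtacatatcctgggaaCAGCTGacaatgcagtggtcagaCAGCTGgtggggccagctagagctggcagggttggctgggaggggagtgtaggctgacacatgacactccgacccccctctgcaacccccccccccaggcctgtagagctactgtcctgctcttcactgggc
The core occurs 2 times in this window. At least 1 occurrence was found in 13% of 32851 such windows in the RefSeq table, and none in that of Myog, which lies at chr1:134289754-134290003 on the plus strand. A match, or its absence, describes the letters of these windows only, and bases further upstream were not searched.

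Macrophage genes stayed high at day 15. Of 16 macrophage markers 15 rose (median 3.95), and all 16 were lower than at day 4 (median -2.45). Adgre1, which encodes the macrophage antigen F4/80, stood at 0.417, 1.06 and 2.08 CPM in uninjured muscle and 7.54, 15.4 and 57.4 CPM at day 15 (4.26 ± 0.48). The 6 day 15 libraries were spread, with the highest in female replicate 1, and none reached down to the uninjured range. Mpeg1, a pore-forming protein of phagocytes, stood at 0.667, 2.54 and 5.21 CPM in uninjured muscle and 41.2, 102 and 188 CPM at day 15 (5.34 ± 0.50). Ms4a7, a tetraspan membrane protein of macrophages, had 20 uninjured counts and lay at 0, 0.171 and 0.229 CPM in uninjured muscle and 5.46, 16.4 and 19.4 CPM at day 15, and the high-affinity Fc receptor gene Fcgr1 at 0, 0.0899 and 1.16 CPM in uninjured muscle and 2.64, 8.22 and 14.7 CPM at day 15.

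Genes of lipid-handling and of resident macrophages were above uninjured muscle in part. Of 13 lipid-associated genes 9 rose and 1 fell against uninjured muscle. Trem2, a lipid-sensing receptor, stood at 0, 0.298 and 0.458 CPM in uninjured muscle and 7.94, 20.1 and 29.0 CPM at day 15, without overlap, and was lower than at day 4 (-3.06 ± 0.42) and day 7 (-2.13 ± 0.40). Spp1, osteopontin, stood at 0.440, 1.17 and 2.84 CPM in uninjured muscle and 9.25, 23.3 and 36.3 CPM at day 15 (4.10 ± 0.64), and had been at 944, 1818 and 2686 CPM at day 4. Lgals3, galectin-3, changed by 4.72 ± 0.45 against uninjured muscle, and Atp6v0d2, a proton pump subunit of osteoclasts and some macrophages, had a ratio of 219-fold (100.3 to 597) on 6 uninjured counts. Of 11 genes of resident and alternatively activated macrophages 8 rose and 2 fell. Against day 4 7 of these 11 were lower and 2, Lyve1 and Retnla, higher (median -0.69). Lyve1, a hyaluronan receptor of perivascular macrophages and of lymphatic endothelium, stood at 0.440, 0.776 and 2.30 CPM in uninjured muscle and 3.89, 13.1 and 21.1 CPM at day 15 (3.84 ± 0.47). It was higher than at day 4 (2.34 ± 0.42) and day 7 (3.18 ± 0.44). Mrc1, the mannose receptor, changed by 2.64 ± 0.28 and Folr2, a folate receptor, by 2.88 ± 0.42. Retnla, a secreted product of alternatively activated macrophages and of adipose tissue, lay at 2.21, 6.49 and 21.6 CPM in uninjured muscle and 4.78, 26.5 and 59.7 CPM at day 15 (1.81 ± 0.48), with overlap. In males alone its change from uninjured muscle was 0.36 and not called. It rose against each earlier day, by 4.70 ± 0.54, 3.76 ± 0.52 and 2.99 ± 0.50. Arg1 and Chil3, named by the day 4 comparison, stood at 0.162, 0.436 and 0.789 CPM and 0, 0 and 0.123 CPM at day 15, after 7.43, 19.4 and 107 CPM and 13.7, 19.8 and 34.5 CPM at day 4, and reads of Chil3 may be shared with a close paralog.

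Genes of monocytes and neutrophils and of T and NK cells were above uninjured muscle as well. Monocyte and neutrophil markers rose in 8 of 13. Ccr2, the receptor of inflammatory monocytes, stood at 0.528, 0.849 and 2.60 CPM in uninjured muscle and 8.51, 20.9 and 34.1 CPM at day 15 (4.27 ± 0.33), and Plac8, a cysteine-rich protein of myeloid cells, at 0.167, 0.443 and 0.879 CPM in uninjured muscle and 2.92, 7.12 and 28.4 CPM at day 15. Clec4d, a C-type lectin of the same cells, lay at 0, 0.162 and 0.368 CPM in uninjured muscle and 1.67, 4.70 and 8.51 CPM at day 15. S100a8, a neutrophil gene, lay at 0.0879, 0.209 and 0.276 CPM in uninjured muscle and 0.247, 1.53 and 15.7 CPM at day 15. It overlapped between groups, and its highest value came from female replicate 3. T and NK cell markers rose in 15 of 20 and fell in 1 (median 3.23), on low counts throughout. Of these 20, 8 were lower and none higher than at day 11 (median -1.80), against 2.25% of all genes lower. This day 11 count was not repeated with single libraries left out. Klrk1, the activating receptor NKG2D, lay at 0, 0.0634 and 0.241 CPM in uninjured muscle and 1.26, 2.48 and 6.35 CPM at day 15, and Cd4 and Cd2 at 1.44, 4.39 and 6.78 CPM and 0.851, 3.21 and 5.12 CPM at day 15 against 0, 0.0903 and 0.528 CPM and 0, 0.210 and 0.643 CPM. Cd3e, the T cell receptor subunit, did not pass the test, at 0, 0.149 and 0.361 CPM in uninjured muscle and 0, 0.151 and 0.388 CPM at day 15 (adjusted p = 0.786). B and plasma cell markers rose in 3 of 8, a share near that of all genes, with Cd22 at 0.0919, 0.235 and 0.886 CPM in uninjured muscle and 1.38, 3.18 and 8.32 CPM at day 15 (3.19 ± 0.47), Cd79b at 1.89 ± 0.32 and the B cell receptor subunit Cd79a not called (0.264, 0.732 and 1.29 CPM in uninjured muscle and 0.586, 1.07 and 1.82 CPM at day 15). Against day 4 4 of the 8 were higher and 1, Cd22 (-1.72 ± 0.39), lower (median 1.20). The number of higher ones was 2 without male day 4 replicate 2, female day 4 replicate 1, female day 4 replicate 2 or female day 15 replicate 3.

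Genes of antigen presentation were above uninjured muscle. Of 15 genes of MHC class II and dendritic cells 14 rose (median 3.48), and none passed the test in either direction against day 11 (median -0.57), or 1 lower and 0 higher without the library labelled female day 11 replicate 3. H2-Ab1 and H2-Aa, the chains of the class II molecule I-A, stood at 6.62, 11.4 and 21.4 CPM in uninjured muscle and 65.0, 182 and 336 CPM at day 15 (3.79 ± 0.35) and at 8.17, 16.0 and 21.5 CPM in uninjured muscle and 99.9, 319.9 and 472 CPM at day 15 (4.09 ± 0.45). Neither gene overlapped between the groups. Itgax, the integrin CD11c, lay at 0, 0.253 and 0.687 CPM in uninjured muscle and 5.50, 12.1 and 21.1 CPM at day 15, and Batf3, a factor of dendritic cells, at 0.138, 0.202 and 0.321 CPM in uninjured muscle and 1.34, 4.74 and 7.58 CPM at day 15 (4.42 ± 0.44). All 7 tested mast cell genes rose. In females alone 7 of them were called higher (median 2.35) and in males alone 1 (median 0.80), and the interaction test called none. Over all 17136 tested genes males alone called 4522 higher, against 6809 in both sexes together. The median over all genes was 0.29 in females alone and 0.18 in males alone. Kit, the stem cell factor receptor, which other cells also make, stood at 0.667, 1.48 and 2.98 CPM in uninjured muscle and 11.7, 15.7 and 23.2 CPM at day 15 (3.61 ± 0.31), while the mast cell protease Cma1 at 0.443, 0.899 and 1.58 CPM in uninjured muscle and 0.973, 2.76 and 6.36 CPM at day 15 (1.46 ± 0.43) and histidine decarboxylase, Hdc, at 0.264, 0.589 and 0.802 CPM in uninjured muscle and 0.857, 2.04 and 7.06 CPM at day 15 (2.10 ± 0.42) were at low levels. The Hdc groups did not overlap and the Cma1 groups did. The 2 mast cell genes not tested, Ms4a2 and Fcer1a, were at 0 in at least 1 library of each group.

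Chemokines and cytokines rose in 20 of 23 and fell in none (median 4.25). Ccl8 stood at 0, 0.0763 and 0.176 CPM in uninjured muscle and 4.01, 18.9 and 27.3 CPM at day 15. Its lack of overlap was a condition of its choice. Ccl3, a ligand of leukocyte receptors, lay at 0, 0.0572 and 0.401 CPM in uninjured muscle and 0.541, 2.30 and 7.37 CPM at day 15, and the neutrophil attractant Cxcl2 at 0, 0 and 0.401 CPM in uninjured muscle and 0.614, 1.25 and 14.9 CPM at day 15, with 14.9 CPM in female replicate 3 and at most 1.83 CPM in the other 5. Cxcl1, its close relative, stood at 0.0417, 0.332 and 0.709 CPM in uninjured muscle and 3.61, 12.9 and 67.2 CPM at day 15 (5.40 ± 0.48), again highest in female replicate 3. Complement genes rose in 12 of 13, led by the receptors C3ar1 (0.24996, 0.462 and 0.763 CPM in uninjured muscle and 5.11, 11.5 and 17.5 CPM at day 15) and C5ar1 (0.167, 0.618 and 1.01 CPM in uninjured muscle and 4.86, 13.1 and 17.997 CPM at day 15). C3 itself was not called, at 13.9, 28.5 and 38.1 CPM in uninjured muscle and 19.5, 28.7 and 90.0 CPM at day 15. Interferon-stimulated genes rose in 11 of 15 against uninjured muscle. Zbp1, a nucleic acid sensor, changed by 3.49 ± 0.51, Oas2 by 2.15 ± 0.30 and the antiviral GTPase gene Mx1 by 2.13 ± 0.64. Against day 11 9 of these 15 genes were lower and none higher (median -1.11), but this count moved with single libraries. The level of the interferon-stimulated list, as log2 above the uninjured mean, was 4.16 in female day 11 replicate 2 and 1.57 to 2.28 in the other 5 day 11 libraries, and without that library 1 gene was called lower. The count was 3 and 4 without male day 11 replicates 2 and 3, 2 without either of male day 15 replicates 2 and 3, 4, 4 and 3 without female day 15 replicates 1, 2 and 3, and 11 without the library labelled female day 11 replicate 3.

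Matrix genes rose in nearly all members of their lists. Of 20 collagen chains 19 rose and none fell (median 3.32). edgeR's interaction test called 2 of the 20 with a higher log2 change in females than in males, against 0.193% of all genes. The median difference by sex in this list was 1.30. The number of such calls over all genes depended on the fit, as given below. Col1a1, a chain of the main fibrillar collagen of scar, stood at 30.2, 62.7 and 139 CPM in uninjured muscle and 1495, 2581 and 4542 CPM at day 15 (5.25 ± 0.50), and Col3a1, the chain of the reticular collagen of early repair, at 52.0, 97.3 and 234 CPM in uninjured muscle and 1862, 3427 and 5533 CPM at day 15 (5.20 ± 0.45). In both the lowest day 15 library was far above the highest uninjured one. Col14a1, a fibril-associated collagen, changed by 4.98 ± 0.40. Against day 4 the collagen list had a median of 0.04, with 5 genes higher and 2 lower, and against day 11 none was called in either direction (median -0.50), or 2 lower and 0 higher without the library labelled female day 11 replicate 3. Of 17 genes that process and crosslink collagen 13 rose and 1 fell, with lysyl oxidase, Lox, at 3.96, 4.96 and 10.8 CPM in uninjured muscle and 50.8, 85.6 and 215 CPM at day 15 (4.01 ± 0.47) and its relative Loxl2 at 3.09 ± 0.41. All 17 matrix glycoproteins rose (median 3.91). Postn, periostin, stood at 3.62, 6.04 and 10.8 CPM in uninjured muscle and 354, 780.02 and 1606 CPM at day 15 (7.18 ± 0.63), and Fn1, fibronectin, at 21.1, 25.8 and 38.5 CPM in uninjured muscle and 200.1, 477 and 859 CPM at day 15 (4.09 ± 0.47). The microfibril protein gene Mfap4 changed by 5.57 ± 0.46 and Ltbp2, a microfibril protein related to the latent TGF-beta binding proteins, lay at 0, 0.0440 and 0.443 CPM in uninjured muscle and 2.96, 6.05 and 10.5 CPM at day 15.

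Proteoglycan and hyaluronan genes rose in 13 of 14 and fell in 1 (median 2.52). Bgn, biglycan, stood at 46.9, 59.6 and 79.8 CPM in uninjured muscle and 364, 681 and 1188 CPM at day 15 (3.38 ± 0.38), and asporin, Aspn, at 7.75, 14.3 and 17.5 CPM in uninjured muscle and 144, 262 and 481 CPM at day 15 (4.31 ± 0.45). Podnl1, a leucine-rich proteoglycan, had 2 uninjured counts and a ratio of 137-fold (37.5 to 1135). Has1, a hyaluronan synthase, lay at 1.18, 5.23 and 27.4 CPM at day 15, with 27.4 CPM in female replicate 3, and was higher than at day 4 (2.10 ± 0.50), day 7 (3.76 ± 0.55) and day 11 (2.90 ± 0.53). Proteases and their inhibitors rose in 14 of 16. Mmp2, gelatinase A, stood at 21.96, 34.2 and 39.1 CPM in uninjured muscle and 153, 233 and 426 CPM at day 15 (2.97 ± 0.31), Mmp3, stromelysin, at 0, 0.324 and 0.722 CPM in uninjured muscle and 5.19, 17.7 and 50.3 CPM at day 15 and Mmp12 at 0, 0.0763 and 0.241 CPM in uninjured muscle and 5.50, 22.3 and 49.9 CPM at day 15, the last with a ratio of 264-fold (157 to 484). None of the 3 overlapped between groups, which for Mmp12 was a condition of its choice. The inhibitor gene Timp1 stood at 0.160, 0.309 and 1.24 CPM in uninjured muscle and 16.7, 28.2 and 60.9 CPM at day 15 (6.17 ± 0.56). Timp4, an inhibitor made in muscle and heart, lay at 76.3, 89.6 and 141 CPM in uninjured muscle and 27.1, 63.4 and 139.9 CPM at day 15 and did not pass the test (adjusted p = 0.419), after 0.712, 4.15 and 10.03 CPM at day 4 and 4.77, 10.5 and 21.7 CPM at day 11.

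**Figure D3:**
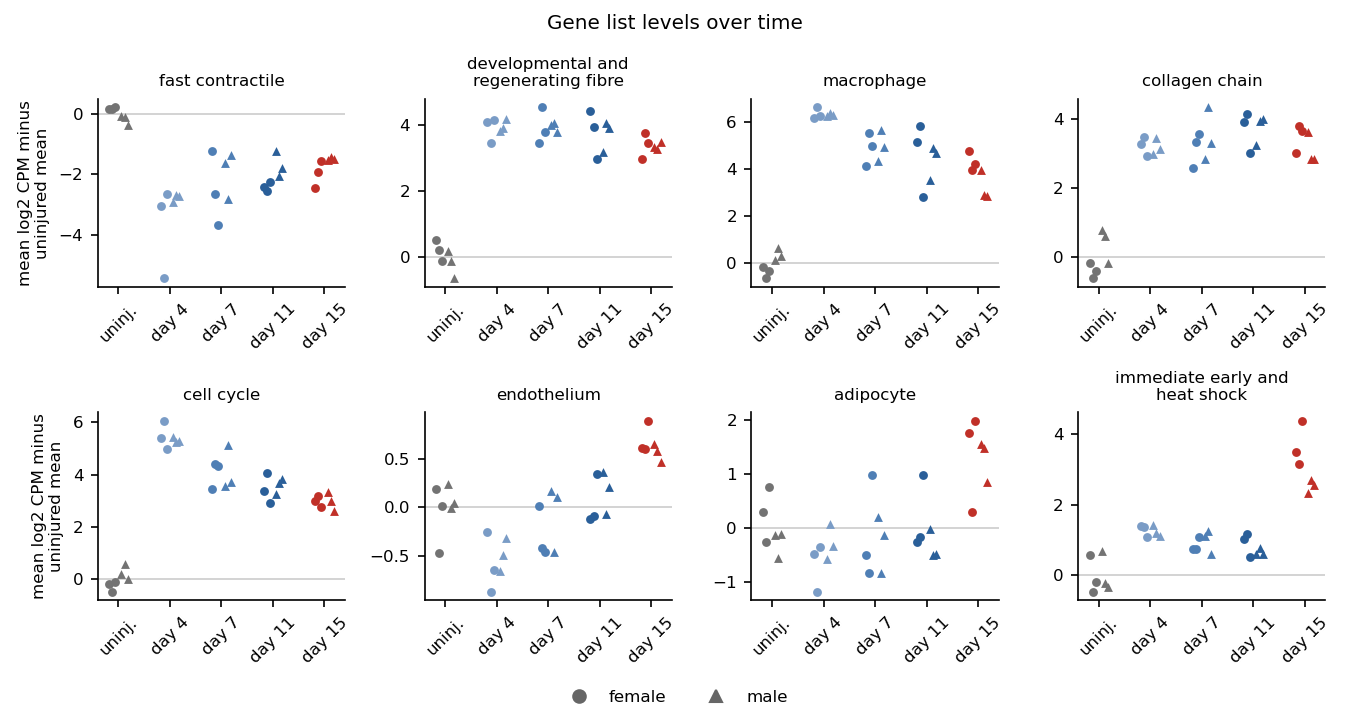
Mean log2 CPM of 8 gene lists minus the mean of the uninjured libraries (vertical axis), with 1 point per library, circles for females and triangles for males, at the 5 times. By their medians macrophage and cell cycle levels are highest at day 4, and in the immediate early and heat shock list all 6 day 15 libraries lie above every other library.

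Fibroblast genes were above uninjured muscle as well. Of 10 myofibroblast genes 9 rose (median 3.07). Lrrc15, a membrane protein of activated fibroblasts, lay at 0.0833, 0.181 and 0.458 CPM in uninjured muscle and 6.49, 28.0 and 55.2 CPM at day 15, and Cthrc1, a secreted protein of the same cells, at 0.0802, 0.474 and 0.827 CPM in uninjured muscle and 10.7, 26.4 and 46.3 CPM at day 15. Acta2, smooth muscle actin, stood at 52.0, 124 and 173 CPM in uninjured muscle and 210.5, 290.3 and 517 CPM at day 15 (1.44 ± 0.36), without overlap. Cdh11, a cadherin of fibroblasts, lay at 0, 0.635 and 1.06 CPM in uninjured muscle and 5.999, 12.8 and 19.2 CPM at day 15. Of 14 genes of fibro-adipogenic progenitors 10 rose and 2 fell. Pdgfra, their defining receptor, stood at 6.95, 9.58 and 13.03 CPM in uninjured muscle and 31.6, 34.3 and 43.4 CPM at day 15 (1.92 ± 0.20), Cd34 changed by 2.24 ± 0.16, Cd248 by 3.13 ± 0.33 and Mfap5 by 3.86 ± 0.37. Tendon genes rose in 6 of 7. Tnmd, tenomodulin, stood at 1.76, 3.75 and 10.2 CPM in uninjured muscle and 25.1, 53.5 and 104 CPM at day 15 (3.55 ± 0.51), Kera, keratocan, changed by 3.79 ± 0.63 and the tenascin gene Tnc by 5.36 ± 0.72. Among the tendon genes Tnmd and Kera were higher than at day 4 (2.19 ± 0.47 and 2.90 ± 0.59) while Tnc was lower (-2.57 ± 0.62). Cartilage and bone genes rose in 10 of 12, and in 4 of the 12 the groups did not overlap, against 45.2% of all genes. Acan, aggrecan, had 2 uninjured counts and lay at 0.902, 2.85 and 14.7 CPM at day 15. The bone regulator Runx2 stood at 0.352, 0.636 and 1.03 CPM in uninjured muscle and 4.92, 6.48 and 10.7 CPM at day 15 (3.37 ± 0.36), the parathyroid hormone receptor gene Pth1r changed by 2.67 ± 0.31, and the cartilage regulator Sox9 lay at 2.48, 2.84 and 5.27 CPM in uninjured muscle and 3.16, 4.41 and 8.15 CPM at day 15, with overlap. The change of Sox9, 0.61 ± 0.25, passed the test, and did not when any 1 of 6 of the 12 libraries was left out, with values down to 0.41 (without female day 15 replicate 3).

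In the list of TGF-beta, BMP and myostatin signalling 14 of 23 genes rose and 5 fell (median 0.79). The ligand gene Tgfb1 stood at 7.46, 10.5 and 14.2 CPM in uninjured muscle and 25.7, 32.6 and 35.3 CPM at day 15 (1.56 ± 0.21), below day 4 (-1.66 ± 0.21). Ccn2, connective tissue growth factor, stood at 4.58, 6.98 and 20.5 CPM in uninjured muscle and 73.1, 165 and 273 CPM at day 15 (3.79 ± 0.44) and was higher than at day 7 (2.12 ± 0.40) and day 11 (2.29 ± 0.41). Fstl1, a secreted follistatin-like glycoprotein, changed by 3.98 ± 0.35. Mstn, myostatin, the inhibitor of muscle growth made by fibres, stood at 31.3, 38.8 and 63.1 CPM in uninjured muscle and 2.47, 3.94 and 8.39 CPM at day 15 (-3.16 ± 0.45). All 6 day 15 libraries lay below all uninjured ones in Mstn.

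Many genes of endothelium, nerve and fat were above uninjured muscle and above day 4. Endothelial genes rose in 12 of 16 and fell in 2 against uninjured muscle (median 0.68). They were higher in 15 of 16 against day 4, in 13 against day 7 and in 5 against day 11, with none lower. The count against day 11 was 9 without the library labelled female day 11 replicate 3, 3 without any 1 of female day 11 replicate 1, female day 15 replicate 1 and male day 15 replicate 3, and 2 without any 1 of male day 11 replicates 2 and 3, female day 11 replicate 2, male day 15 replicate 2 and female day 15 replicate 3. Pecam1, the endothelial adhesion protein CD31, stood at 103, 141 and 153 CPM in uninjured muscle and 173, 194 and 223 CPM at day 15 (0.54 ± 0.15), without overlap. Cldn5, the tight junction protein of endothelium, stood at 15.1, 39.7 and 47.1 CPM in uninjured muscle and 60.8, 68.9 and 114 CPM at day 15 (1.22 ± 0.22), the transcription factor gene Sox18 changed by 1.11 ± 0.18 and the apelin receptor gene Aplnr by 2.07 ± 0.20. Angiogenic factors rose in 5 of 10 and fell in 1, against 39.7% and 29.3% of all genes. Against day 4 4 of the 10 were higher, and 25.1% of all genes. Pgf, placental growth factor, changed by 2.89 ± 0.30, apelin, Apln, by 2.39 ± 0.29 and Vegfb, which fibres make, by -1.88 ± 0.25. Pericyte and smooth muscle genes rose in 3 of 10 and fell in 4 (median 0.14), shares not far from those of all genes. Against day 4 3 of the 10 were higher and 1 lower. Mcam changed by 1.44 ± 0.21, Cspg4 by 1.42 ± 0.17 and the actin-binding protein gene Synpo2, also made by fibres, by -3.38 ± 0.57. Myh11, smooth muscle myosin, was not called (42.0, 78.4 and 112 CPM in uninjured muscle and 66.6, 105 and 143 CPM at day 15).

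Schwann cell and nerve genes rose in 9 of 13 and fell in 1. Against day 4 8 were higher and 1 lower. Gdnf, a neurotrophic factor, stood at 0.352, 0.865 and 2.17 CPM in uninjured muscle and 2.46, 4.38 and 9.20 CPM at day 15 (2.25 ± 0.39), Egr2, a factor of myelinating Schwann cells and of macrophages, at 2.51 ± 0.33 and S100b at 1.48 ± 0.28. Adipocyte genes rose in 8 of 12 and fell in 1, and 10 were higher than at day 4. Females alone called 4 and males alone 5 of them higher. In 3 of the 12 the groups did not overlap, against 45.2% of all genes. Adipoq, adiponectin, lay at 0.0763, 0.388 and 1.58 CPM in uninjured muscle and 0.646, 5.19 and 13.7 CPM at day 15. Its day 15 libraries were widely spread, and the lowest, female replicate 2, fell within the uninjured range. Cidec, a lipid droplet protein, lay at 0, 0.182 and 0.791 CPM in uninjured muscle and 0.287, 3.70 and 8.62 CPM at day 15 and was lowest in the same library. Cebpa, a factor of adipocytes and myeloid cells, changed by 2.30 ± 0.33.

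Cell cycle genes were above uninjured muscle and below days 4 and 7. Of 20 cell cycle genes 17 rose and 2 fell against uninjured muscle (median 3.35), 20 of 20 were lower than at day 4 and 18 lower than at day 7. Against day 11 none passed edgeR's test in either direction (median -0.58), or 2 lower without the library labelled female day 11 replicate 3 and 1 lower without male day 15 replicate 1. Mki67, the antigen of dividing cells, stood at 0, 0.601 and 1.68 CPM in uninjured muscle and 19.1, 30.9 and 38.6 CPM at day 15, after 93.2, 109.96 and 175 CPM at day 4. Its groups did not overlap. Cenpf, Bub1 and Ccnb1, genes of mitosis with 6 uninjured counts each, had ratios of 94.1-fold (43.0 to 257), 53.6-fold (24.4 to 147) and 50.6-fold (23.0 to 139). The 2 cell cycle genes that fell were Aurka (-2.45 ± 0.23) and Mcm2 (-0.97 ± 0.21), named after their values were seen. With libraries scaled by size alone the value of Mcm2 turned to 0.07.

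Growth factor genes of the IGF family rose in 9 of 13 and fell in 1. Igf1, which promotes fibre growth, stood at 7.62, 16.9 and 35.9 CPM in uninjured muscle and 99.001, 283 and 400.4 CPM at day 15 (3.92 ± 0.35), and Igf2 at 37.3, 57.7 and 65.1 CPM in uninjured muscle and 225, 419 and 779 CPM at day 15 (2.93 ± 0.34). Both were higher in every day 15 library than in every uninjured one. Igf1 was also higher than at day 4 (1.40 ± 0.32). The binding protein gene Igfbp4 changed by 2.94 ± 0.28, and Igfbp2, with 6 uninjured counts, had a ratio of 145-fold (66.1 to 395). In the list of atrophy and glucocorticoid response 6 of 14 rose and 5 fell (median 0.03), shares near the 39.7% and 29.3% of all genes. Fbxo32, the ubiquitin ligase atrogin-1, lay at 239.6, 293 and 441 CPM in uninjured muscle and 85.5, 132 and 246 CPM at day 15 (-1.14 ± 0.35). The metallothioneins Mt1 and Mt2 changed by 2.62 ± 0.32 and 4.42 ± 0.45, and Bnip3, a mitophagy receptor, by -1.68 ± 0.31. Circadian clock genes rose in 2 of 13 and fell in 6. Dbp, a clock output, stood at 69.4, 155 and 234 CPM in uninjured muscle and 11.7, 37.7 and 50.6 CPM at day 15 (-2.19 ± 0.39), Nr1d1, a repressor of the clock, at 136, 248 and 315 CPM in uninjured muscle and 52.8, 73.3 and 96.3 CPM at day 15 (-1.71 ± 0.28). The labels give no time of day for any sample. The median of this list was -0.42 and turned to 0.62 with libraries scaled by size alone.

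Immediate early genes, which cells transcribe within minutes of a stimulus, were higher at day 15 than at the other times. All 14 genes of the immediate early and heat shock list rose against uninjured muscle (median 2.54). Against day 4 12 were higher and 1 lower, against day 7 13 were higher and against day 11 13 (median 2.26), or 12 without the library labelled female day 11 replicate 3. Fosb stood at 0.184, 0.624 and 2.13 CPM in uninjured muscle and 65.9, 152 and 629.8 CPM at day 15 (8.08 ± 0.58), after 3.83, 5.18 and 7.18 CPM, 1.98, 4.27 and 14.2 CPM and 3.05, 3.92 and 6.81 CPM at days 4, 7 and 11. Fos stood at 2.33, 4.10 and 10.9 CPM in uninjured muscle and 185, 334 and 1197 CPM at day 15 (6.29 ± 0.49), and had been at 22.3, 29.4 and 43.4 CPM at day 4, 9.48, 18.7 and 42.8 CPM at day 7 and 9.99, 14.2 and 29.6 CPM at day 11. In both genes every day 15 library was above every library of the other times. No overlap was a condition for naming Fosb against each other time, and Fos against days 7 and 11. In those comparisons the separation follows from the choice. Egr1 stood at 5.29, 14.4 and 102 CPM in uninjured muscle and 222, 344 and 1375 CPM at day 15 (3.95 ± 0.54). Zfp36, whose protein destabilises cytokine mRNAs, stood at 11.5, 15.5 and 46.9 CPM in uninjured muscle and 90.4, 173 and 697 CPM at day 15 (3.31 ± 0.30), and Depp1, a target of FOXO factors, at 6.17, 9.85 and 71.3 CPM in uninjured muscle and 57.3, 67.7 and 129 CPM at day 15 (2.17 ± 0.45), with 1 uninjured library in the day 15 range.

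At day 15 every female library lay above every male one in Fos, Fosb, Egr1, Zfp36, Cxcl1 and Cxcl2, while the sexes overlapped in Depp1. The interaction test of edgeR called none of the 14 immediate early and heat shock genes. In Fos the females were at 380 to 1197 CPM and the males at 185 to 287 CPM. Female replicate 3 was the highest library in Fos, Fosb, Egr1, Zfp36, Depp1, Cxcl1 and Cxcl2. Leaving out that library gave 14 of 14 genes called higher against uninjured muscle, and 12, 12 and 12 called higher against days 4, 7 and 11. The difference between the sexes in this change did not pass the test in Fos (1.95 ± 0.79, adjusted p = 0.297 by edgeR), Fosb (3.11 ± 1.00, adjusted p = 0.190 by edgeR) or Zfp36 (2.37 ± 0.56, adjusted p = 0.0776 by edgeR). S100a8 and Has1 were highest in the same library, and without it 19 of 23 chemokine and cytokine genes were called higher. The part of that library's other features in these levels was not tested.

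The windows before the starts of 3 of these genes are printed because these genes moved together, from the RefSeq table of GRCm38.p6, 250 bases before the start and read along the gene's strand. Capitals mark TGACG, the core of the cAMP response element, in Fos (chr12:85473640-85473889, plus strand) and Fosb (chr7:19310046-19310295, minus strand), and the CArG box, the site of serum response factor, in Zfp36 (chr7:28379229-28379478, minus strand).
Fos: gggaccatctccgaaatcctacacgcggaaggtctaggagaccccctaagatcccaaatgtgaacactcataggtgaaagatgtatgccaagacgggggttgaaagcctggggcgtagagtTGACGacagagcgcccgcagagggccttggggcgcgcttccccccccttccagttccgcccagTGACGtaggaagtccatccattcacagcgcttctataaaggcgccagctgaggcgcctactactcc
Fosb: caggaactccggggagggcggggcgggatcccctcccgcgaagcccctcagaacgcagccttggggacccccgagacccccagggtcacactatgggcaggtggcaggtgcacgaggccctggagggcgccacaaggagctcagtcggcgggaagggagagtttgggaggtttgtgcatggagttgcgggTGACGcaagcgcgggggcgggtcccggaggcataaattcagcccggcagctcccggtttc
Zfp36: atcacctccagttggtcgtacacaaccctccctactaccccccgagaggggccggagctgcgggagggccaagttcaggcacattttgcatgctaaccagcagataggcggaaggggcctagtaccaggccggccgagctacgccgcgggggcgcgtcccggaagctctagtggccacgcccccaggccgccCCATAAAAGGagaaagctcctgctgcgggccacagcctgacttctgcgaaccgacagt
Searched on both strands, TGACG was found in 17.8% and the CArG box in 1.47% of all 32851 windows. The core was searched for after the full site TGACGTCA, which 1.55% of windows hold, gave no match in these 3. None of the 3 windows held a match to both motifs. Bases further upstream than 250 were not searched, so a motif missing from a window may still lie in that gene's promoter.

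**Figure D4:**
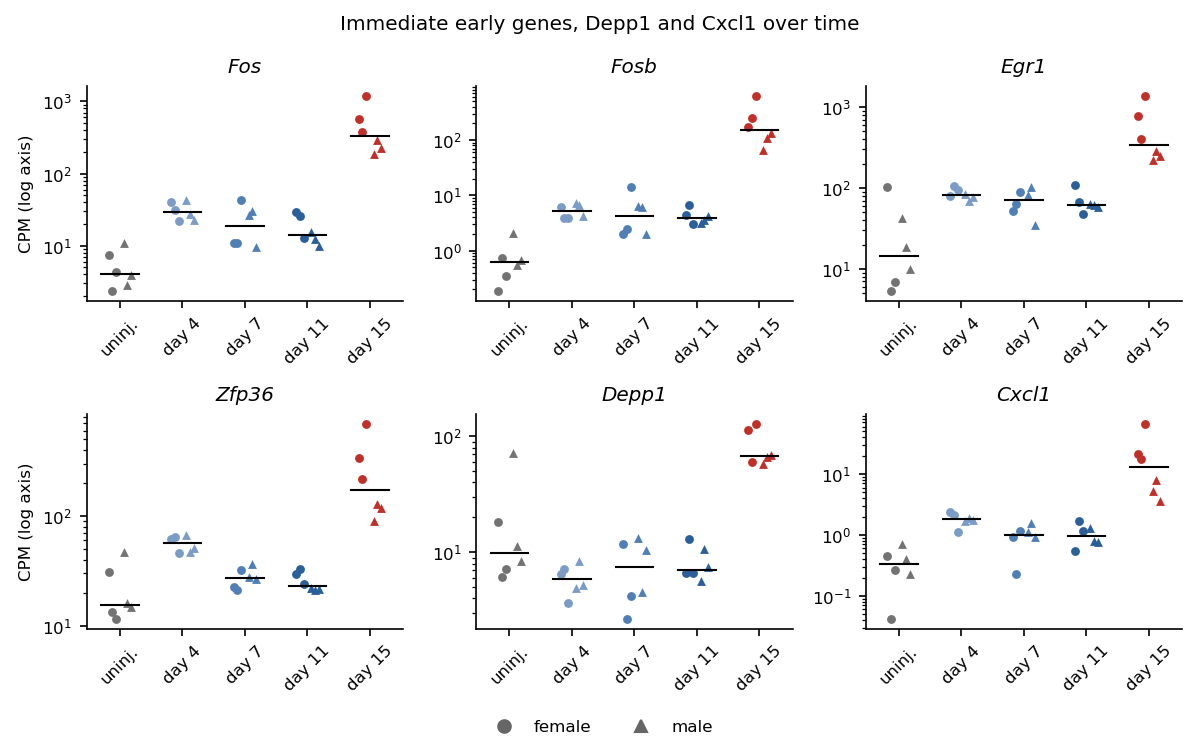
CPM on a log axis of Fos, Fosb, Egr1, Zfp36, Depp1 and Cxcl1 in each library at the 5 times, circles for females and triangles for males; the horizontal bar is the median of 6 libraries. In Fos and Fosb all 6 day 15 libraries lie above every other library. For Fosb, and for Fos against days 7 and 11, this was a condition of naming the gene.

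Compared with the earlier days, the fewest genes were called against day 11. Against day 4 the 5 largest rises were Fosb, Retnla, Spon2, Timp4 and Mettl21e. Spon2, a secreted matrix protein, stood at 6.89, 30.3 and 55.1 CPM after 0.245, 1.23 and 1.83 CPM (4.54 ± 0.55). Mettl21e, a methyltransferase of muscle fibres, stood at 7.89, 13.6 and 22.3 CPM after 0.123, 0.773 and 1.32 CPM (4.18 ± 0.52), and overlapped with its uninjured range of 8.22, 12.4 and 24.4 CPM. The 5 largest falls since day 4 were Chil3, Gal, Spp1, Arg1 and R3hdml, of which the neuropeptide gene Gal went from 14.7, 23.7 and 29.8 CPM to 0.0776, 0.234 and 0.493 CPM and R3hdml from 26.3, 31.0 and 44.2 CPM to 0.405, 0.630 and 2.55 CPM. Since day 7 the largest falls were in Spp1, Myh3, Cd72, Sox8 and Tlr1. Myh3 changed by -2.92 ± 0.49 and Sox8, a factor of satellite cells and glia, by -2.70 ± 0.28. Cd72, a receptor of B cells and some macrophages, and the innate receptor gene Tlr1 were lower than at each earlier day, Cd72 by -3.20 ± 0.45, -2.74 ± 0.45 and -2.57 ± 0.44 and Tlr1 by -3.25 ± 0.38, -2.59 ± 0.37 and -2.34 ± 0.37. Since day 11 the largest falls also took in Ms4a4b, a T cell gene, at -2.89 ± 0.54, Slfn1 at -2.61 ± 0.56 and Mx1 at -2.52 ± 0.55. Without female day 11 replicate 2 the changes of Slfn1 and Mx1 were -1.36 and -1.62 and did not pass the test. Without the library labelled female day 11 replicate 3 the changes from day 11 printed here kept their direction and their call. The largest rises since day 11 were Fosb, Fos, Cxcl1, Depp1 and Zfp36.

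The change from uninjured muscle to day 15 differed between females and males in a number of genes that depended on the fit. The interaction test of edgeR called 33 genes (0.193%) with a higher and 3 (0.0175%) with a lower log2 change in females, and leaving out 1 library in turn gave 8 (without male day 15 replicate 3) to 46 in both directions together. Fitting only the compared groups called 278 genes and DESeq2 201. The number was 16 without male uninjured replicate 2, 22 and 14 without female uninjured replicates 1 and 3, 11 without male day 15 replicate 2, and 15 and 11 without female day 15 replicates 1 and 3. The 3 autosomal genes with the smallest p on the female side were Cbr2, Bco2 and Cdk19. Cbr2, a carbonyl reductase, stood at 14.0 ± 1.86 CPM in uninjured females and 28.8 ± 6.49 at day 15, and 77.2 ± 18.5 in uninjured males and 18.6 ± 3.01 at day 15 (mean ± SD, n = 3). The uninjured males lay above the uninjured females, and the order was reversed at day 15 (difference of 3.10 ± 0.42, adjusted p = 0.00169 by edgeR). Cdk19, a kinase of the Mediator complex, stood at 17.4 ± 1.42 CPM in uninjured females and 28.0 ± 3.88 at day 15, and 55.8 ± 23.2 in uninjured males and 23.8 ± 1.53 at day 15 (mean ± SD, n = 3) (adjusted p = 0.00364 by edgeR). Its uninjured males lay above the uninjured females, and the day 15 libraries of the sexes overlapped. Bco2, a carotenoid-cleaving enzyme, had no counts in uninjured females, so that its fitted difference depends on the prior count. On the male side stood Cacna2d2, a calcium channel subunit, at 1.34 ± 0.150 CPM in uninjured females and 0.533 ± 0.168 at day 15, and 0.315 ± 0.0744 in uninjured males and 0.921 ± 0.471 at day 15 (mean ± SD, n = 3), Fkbp5, a target of the glucocorticoid receptor, and Mybph, a myosin-binding protein. Fkbp5 stood at 102 ± 7.76 CPM in uninjured females and 31.7 ± 12.9 at day 15, and 39.9 ± 6.71 in uninjured males and 66.8 ± 36.6 at day 15 (mean ± SD, n = 3) (adjusted p = 0.0313 by edgeR). Mybph stood at 249 ± 61.4 CPM in uninjured females and 46.1 ± 10.8 at day 15, and 76.3 ± 31.3 in uninjured males and 67.9 ± 16.4 at day 15 (mean ± SD, n = 3) (adjusted p = 0.0473 by edgeR). Leaving out 1 library ended the call of Fkbp5 for 9 of 12 libraries, with log2 differences of -2.48 to -2.09, and that of Mybph for 10 of 12, with -2.40 to -2.05. Males alone, with 3 libraries a group, gave 10 of 20 fast contractile, 9 of 16 glycolysis and 9 of 19 fatty acid genes called lower. Females alone, also with 3 a group, gave 16, 15 and 16. In males alone 13 of 23 chemokine, 5 of 15 interferon-stimulated, 7 of 16 endothelial and 6 of 14 satellite cell genes were called higher. The female counts were 19, 8, 12 and 11. Males alone also called higher 5 of 11 resident macrophage, 5 of 12 adipocyte and 5 of 12 cartilage and bone genes. For these the female counts were 8, 4 and 9. Each of these male counts differed from the count of both sexes together by over 1.5 times. In these lists the interaction test called 1 resident macrophage gene and no other. Over all 17136 tested genes males alone called 4522 higher, against 6809 in both sexes together, and the number called lower stayed within 1.5 times. In males alone the changes of Acta2, Cldn5, Cma1, Cxcl2, Depp1, Fbxo32, Hdc, Pecam1, Retnla and Sox9 did not pass the test, and in females alone those of Chrna1 and Mx1 did not, while the interaction test called none of these genes. In males the change of Fkbp5 did not pass the test, with uninjured libraries at 33.7 to 47.0 CPM and day 15 libraries at 25.2 to 94.1 CPM.

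**Figure D5:**
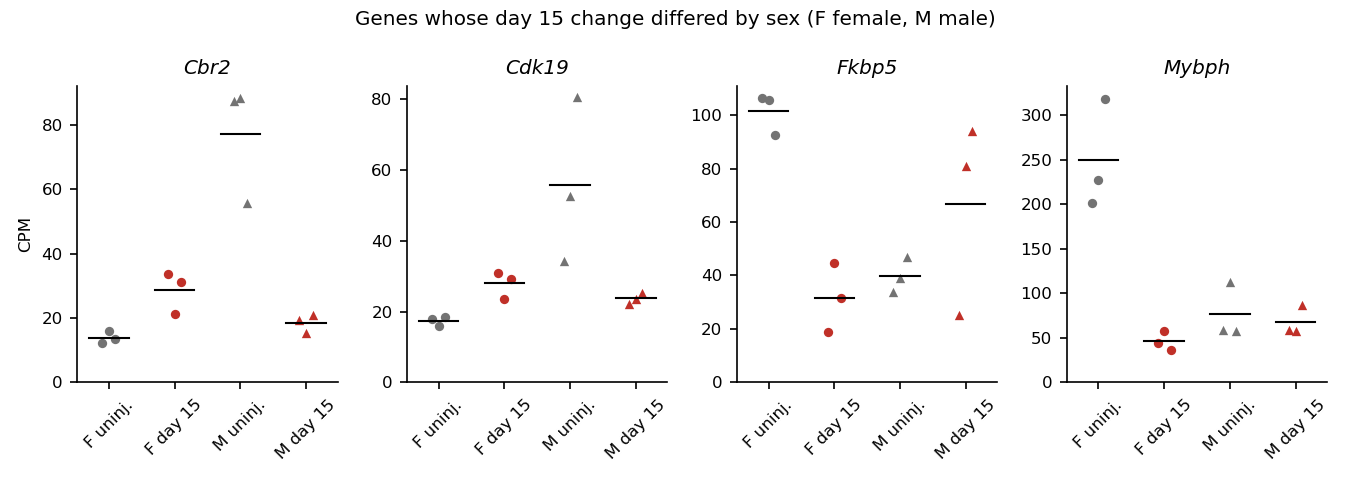
CPM of Cbr2, Cdk19, Fkbp5 and Mybph in each of the 12 libraries, by sex and time; the axis starts at 0 and the bar is the mean of 3 libraries. Uninjured females and males lie apart in all 4 genes.

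Markers of tissue that a sample could carry along were also read. In skin, Krt5 was at 0 in all 6 uninjured libraries and at most 0.0717 CPM at day 15, and Trp63, which muscle can also make, was the one called gene at a mean of at least 1 CPM (5.84, 6.17 and 8.33 CPM in uninjured muscle and 8.94, 17.4 and 28.1 CPM at day 15, 1.39 ± 0.24). The 4 haemoglobin genes of the erythroid list were at 0 in all 12 libraries. These genes have near-identical copies, so blood was not read from them, and Alas2 was not called.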

How the data were processed

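RNA of tibialis anterior muscle was sequenced. The authors deposited 1 file of raw read counts per library, 26264 gene symbols each. The submitters' processing notes name STAR, edgeR and mm39, and the file headers name STAR; the counting program and the versions are not given there. Small counts (1 to 20) were even in 72.4 to 77.5% of cases, as when both reads of a pair are counted, so the floor of 6 counts stands for 3 pairs. Genes were filtered (filterByExpr, 17136 kept, 9128 removed), scaled by TMM and fitted over all 30 libraries in 10 groups of sex and time with edgeR 4.0.16 (R 4.3.3, limma 3.58.1; glmQLFit and glmQLFTest), weighting the sexes equally. P-values were adjusted by the Benjamini-Hochberg method over all tested genes, and the SE is the absolute log2 fold change divided by the root of F. The code was tested on simulated data. DESeq2 1.42.0, other scalings and filters, thinning, halved counts and left-out libraries served as alternatives.

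Named genes are the 12 called genes per direction with the largest change (mean of at least 5 CPM, no overlap, no predicted gene), the 3 most changed called members of each list at 1 CPM or more plus a fixed defining marker for some lists, 5 per direction against each earlier day, and 3 autosomal genes per direction for the sex difference; values of some of these are not reported here. Where uninjured counts of 1 sex were 6 or fewer, levels or a ratio with its counting interval replace the fitted fold. The comparison and the 45 lists (634 of 653 symbols tested) were chosen with earlier results of these data known. Total counts were 13089999 to 48860849 in the 12 libraries compared. PCR reads without molecular identifiers are not independent molecules, so intervals cover counting error only. They were computed on the counts as deposited and were not widened for reads counted in pairs, so they are too narrow if pairs were counted.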

Additional observations from a re-analysis of the deposited data

Results flagged for a closer look

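A single library lay far from the other 5 of its group in 21 of 370 groups of 6 examined (185 named genes, uninjured and day 15, on log2 of CPM + 0.1, by Dixon's 95% critical value). Chance flags about 1 in 20 groups that are independent. These groups share 12 libraries and some genes were picked for no overlap, so the number expected by chance here is not known. Male uninjured replicate 1 held 5 of the 21.

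At day 15, female replicate 2 was highest in Myh2 (2824 CPM, next 1037), Myh3 (319 CPM, next 140.4) and Cspg4 (56.0 CPM, next 42.2). Female replicate 3 was highest in Cxcl2 (14.9 CPM, next 1.83) and Tspan8 (18.6 CPM, next 7.54). Female replicate 1 was highest in Epm2a (3.51 CPM, next 1.04) and lowest in Sgcd (21.2 CPM, next 30.2). Male replicate 3 was highest in Sln (1088 CPM, next 484) and lowest in Batf3 (1.34 CPM, next 4.15).

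In uninjured muscle, male replicate 1 was lowest in Cs (1113 CPM, next 1585), Nr1d1 (136 CPM, next 241), Phospho1 (15.6 CPM, next 37.9) and Sdr39u1 (32.1 CPM, next 58.1) and highest in S100b (2.48 CPM, next 1.68). Female replicate 2 was highest in Myh7 (75.8 CPM, next 2.33) and lowest in Aspn (7.75 CPM, next 13.6) and Cspg4 (8.17 CPM, next 14.9). Male replicate 3 was lowest in Acta1 (57154 CPM, next 83151). In 3 genes the gap rests on a few counts: Bub1 at 0.241 CPM in male replicate 2 and Podnl1 at 0.0763 CPM in male replicate 3, each with the other 5 libraries at 0, and Ms4a4b at 0 in female replicate 3.

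The change from uninjured muscle to day 15 differed between females and males by edgeR's interaction test in Cbr2 (log2 difference, female minus male, 3.10), Cdk19 (1.91), Fkbp5 (-2.42) and Mybph (-2.27).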

How the results depend on the processing

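Under the alternatives 5522 of 5636 values of named genes kept their direction and side of the threshold, 226 of 270 counts stayed within 1.5 times, and 994 of 1100 list medians moved by less than 1 SD of the day 15 levels. Depth limits genes of few counts, such as the T cell list. Scaling by library size alone gave 11956 genes higher and 1360 lower than uninjured muscle, 2773 higher than at day 4 and 194 higher than at day 11. It turned the circadian list (0.62), Mcm2 (0.074), Myh1 (0.30), Pax7 (0.44), Timp4 (0.51), Trdn (0.47) and Ttn (0.44). A test for a change over 2-fold called 3658 higher and 1641 lower than uninjured muscle, 954 and 1159 than at day 4, 63 and 61 than at day 7, 23 and 3 than at day 11, and 3 by sex. Fitting only the compared groups called 994 lower than at day 7, 135 lower than at day 11 and 278 by sex, and turned the atrophy list (-0.0014). DESeq2 called 527 higher and 737 lower than at day 11 and 201 by sex. Thinned libraries called 14 and halved counts 22 by sex. Males alone had 4522 genes higher, and turned the pericyte list (-0.18), C3 (-0.29), Chrne (-0.18) and Myh1 (0.12). Females alone turned Myh2 (-0.46) and Myh7 (-0.18).

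Leaving out 1 library gave 6467 to 6773 higher and 4725 to 5427 lower than uninjured muscle, 3567 to 4323 and 4210 to 5167 than at day 4, 885 to 1613 and 1071 to 2219 than at day 7, 186 to 575 and 99 to 931 than at day 11, and 8 to 46 by sex. Of 44 lists 35 to 36 kept a median above 0. The atrophy list turned without male uninjured replicate 2 (-0.059), female uninjured replicate 2 (-0.013) and female day 11 replicate 3 (-0.03). Cd3e turned without female uninjured replicate 2 (-0.06), male day 15 replicate 1 (-0.09) and female day 15 replicate 2 (-0.88), with values up to 0.73, and Myh2 without female day 15 replicate 2 (-0.000163), with values up to 0.56. The causes were not tested.

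Same-numbered libraries did not deviate together (correlations of -0.085 to 0.019). With so few libraries a group these values cannot decide whether the numbers mark a shared animal or batch, and this was not tested further. With a replicate block 6811 genes were higher and 4990 lower than uninjured muscle, 368 and 337 than at day 11, and 28 by sex; Mybph lost and Myh11 gained a call. Leaving out libraries of days 4, 7 and 11 was added after seeing the data.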
